A study of Mus musculus with 9 samples.

Results

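The 10 genes Cyp7a1, Cyp7b1, Cyp39a1, Hsd3b7, Akr1d1, Cyp8b1, Cyp27a1, Amacr, Slc27a5 and Baat encode enzymes that convert cholesterol into conjugated bile acids in the liver. They were followed in the livers of 9 female mice of the outbred Crlj:CD1(ICR) stock, with 1 microarray per mouse. A probe set was used when it was annotated to 1 of these symbols alone, and a gene with several was represented by the one with the highest mean signal over the 9 arrays. All 10 passed the filter on dim probe sets, and they are 10 of the 12467 genes tested.

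Of the mice, 3 ate powdered diet with 5000 ppm permethrin, a pyrethroid insecticide, 3 ate diet with 5000 ppm clofibrate, a fibrate drug that activates the nuclear receptor PPARα, and 3 control mice ate diet with 0 ppm of either compound. Feeding lasted 2 weeks and began after 1 week of quarantine in mice bought at 9 weeks of age. The labels call the arrays biological replicates, so the p-values below measure the spread between mice of a group. RNA was taken from whole liver, in which fewer cells of a type and less RNA per cell cannot be told apart.

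Bile acid synthesis starts either with 7α-hydroxylation of cholesterol by Cyp7a1, the classic route, or with hydroxylation of the cholesterol side chain, the alternative route, whose oxysterols are then 7α-hydroxylated by Cyp7b1 or Cyp39a1. The sterol ring is modified next, the side chain is shortened in mitochondria and peroxisomes, and the product is joined to an amino acid, mainly taurine in mice. In liver the pathway is the main outlet for cholesterol, and its first enzyme is repressed by returning bile acids.

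With clofibrate 4 of the 10 enzymes fell relative to control diet and 0 rose, as judged by limma with Benjamini-Hochberg adjustment over all probe sets tested and a threshold of 0.05. The 4 were the oxysterol hydroxylase Cyp39a1, the ring reductase Akr1d1, the sterol 27-hydroxylase Cyp27a1 and the bile acid ligase Slc27a5. Over all genes 7.03% passed this test, 3.22% of all as higher and 3.8% as lower. An unadjusted p under 0.05 was reached by 6 of the 10 and by 21.0% of all genes. The median log2 change of the 10 enzymes was -0.34, against -0.04 for all genes. Of the 10, 7 had clofibrate and control arrays that did not overlap, all lower with clofibrate, where 27.2% of all genes did not overlap and 15.6% did so as lower.

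Permethrin moved no enzyme past the threshold relative to control in limma, where 2.13% of all genes passed, and 4 had an unadjusted p under 0.05 (Cyp7b1 higher and Cyp39a1, Akr1d1 and Slc27a5 lower), where 15.8% of all genes did. The median log2 change was -0.10, against -0.04 for all genes. Arrays of permethrin and control mice did not overlap for 4 enzymes, all lower with permethrin, where 22.7% of all genes did not overlap and 13.2% did so as lower. Between the diets themselves, 1 enzyme passed the test, Cyp7b1, which was higher with permethrin than with clofibrate, where 0.738% of all genes passed and 0.473% did so as higher. Of the 10, 4 had an unadjusted p under 0.05, against 13.0% of all genes. Permethrin and clofibrate arrays did not overlap for 4 enzymes, Cyp7b1, Cyp27a1 and Akr1d1 higher and Amacr lower with permethrin, where 18.1% of all genes did not overlap and 9.02% did so as lower. Both diet comparisons use the same 3 control arrays.

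**Figure D1:**
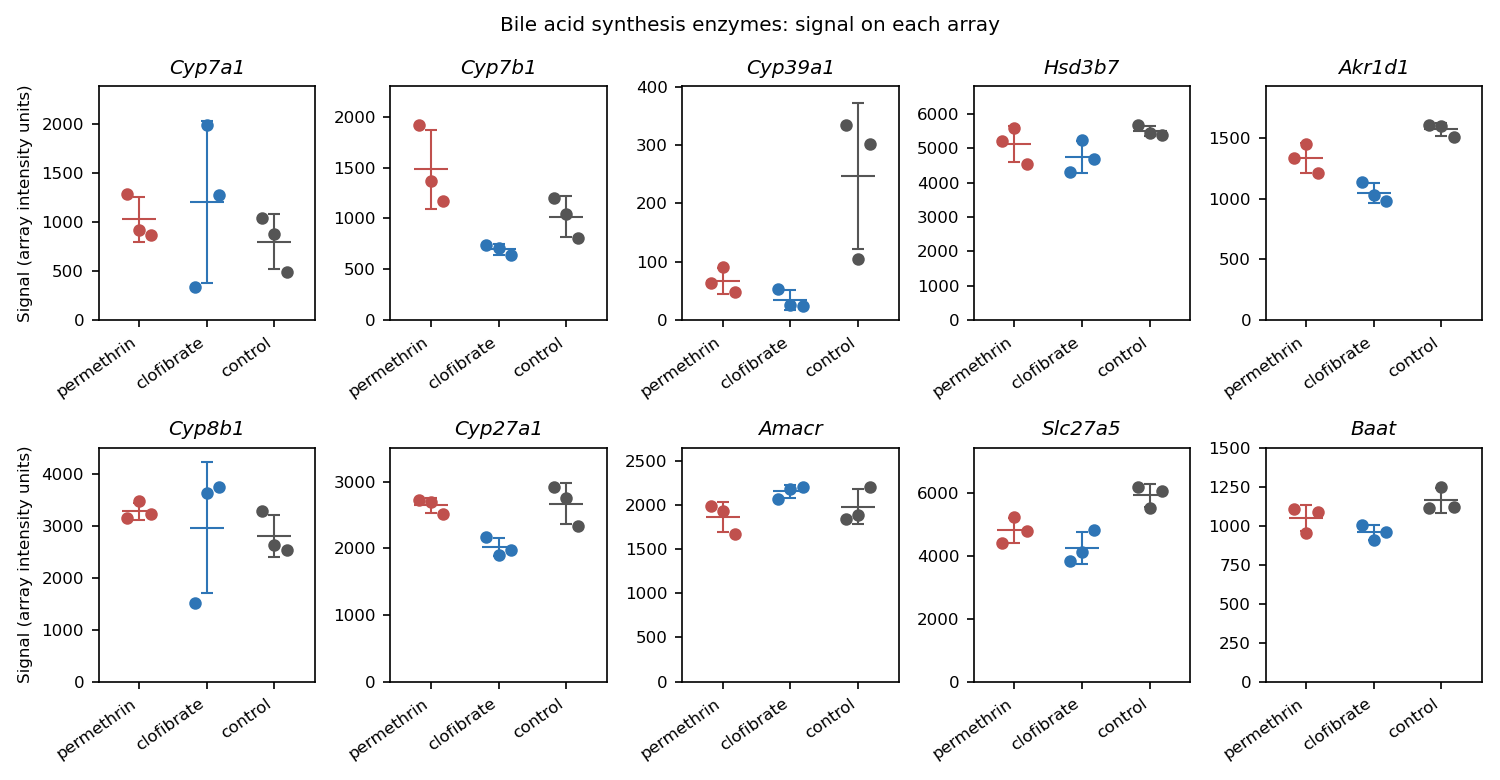
Signal of each of the 10 enzymes on every array, on linear axes that start at 0, with 1 point per mouse for permethrin, clofibrate and control and a line with bars at each group's mean ± SD (n = 3). The Cyp39a1 points of both diets lie below all 3 control points, and the clofibrate points of Cyp7a1 spread the widest of its groups, between 339 and 1989.

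**Figure D2:**
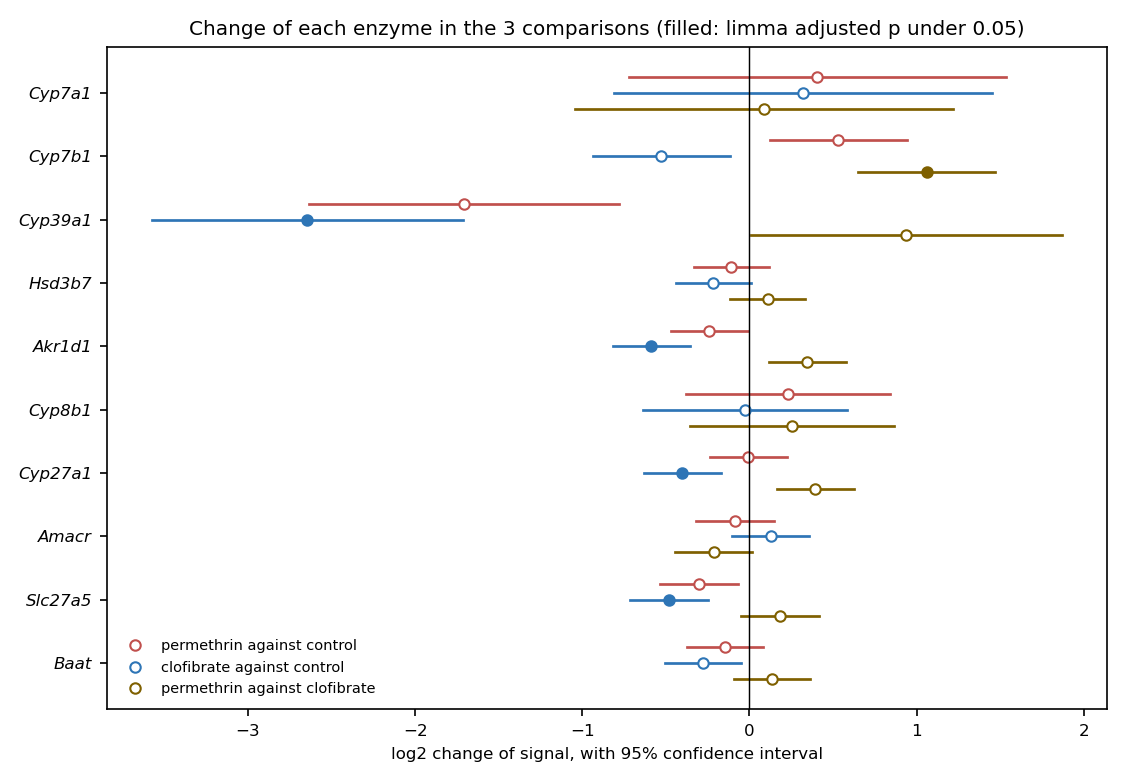
Log2 change of each enzyme in the 3 comparisons, with its 95% interval from limma, where filled points passed an adjusted p of 0.05. Cyp39a1 has the largest fall with clofibrate, -2.64, and the interval of Cyp7a1 spans 0 in every comparison.

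These calls come with a shift in hepatocyte genes. Of 6 hepatocyte markers listed, 4 had a probe set of their own (Alb, Apoa1, Tat and Ttr), and their summed signal was 32316 to 35374 in permethrin, 25624 to 33119 in clofibrate and 36881 to 40788 in control mice. With clofibrate, Alb (albumin) fell by 0.42 on the log2 scale (limma adjusted p = 0.0248) and Apoa1 (apolipoprotein A-I) fell by 0.40 (limma adjusted p = 0.0445), and the median of the 4 was -0.41. With permethrin the median was -0.18. The trimmed means of the deposited arrays averaged 100.001. The highest signal on an array was 12792 to 13409 with permethrin, 10714 to 12058 with clofibrate and 14387 to 14899 with control diet. Among the 1124 genes with a mean signal above 1000, which include 9 of the 10 enzymes, the median log2 change with permethrin was -0.06, with 5.78% higher and 3.38% lower, and with clofibrate -0.13, with 9.25% higher and 18.8% lower. Summed markers of both liver zones were lower too, though not every marker was. Periportal sums were 19219 to 21953 with permethrin, 15430.4 to 19900.2 with clofibrate and 22351 to 28276 with control diet. Pericentral sums were 19856 to 21560.2 with permethrin, 15524 to 21011 with clofibrate and 22379 to 25799.7 with control diet. Of 6 periportal markers tested, the histidine ammonia-lyase Hal fell with both diets and Cps1 and Cyp2f2 with clofibrate. Of 8 pericentral markers Cyp1a2 fell with clofibrate and 0 passed with permethrin. Over all genes 0.85% passed as lower with permethrin and 3.8% with clofibrate. Estimates were above 0 with both diets, without passing, for the periportal Hsd17b13 and the pericentral Rhbg. The log2 change of Hsd17b13 was 0.64 ± 1.56 with permethrin and 0.55 ± 1.56 with clofibrate (SE). That of Rhbg was 0.11 ± 0.23 and 0.17 ± 0.23. These SEs exceed the changes, so no direction can be read for either gene. The pericentral Oat changed by 0.00 with permethrin. The part of these shifts in the enzymes' changes was not tested.

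Cyp7a1 encodes cholesterol 7α-hydroxylase, the rate-limiting enzyme of the classic route. Its signal was 1286, 922 and 871 in the permethrin mice, 339, 1989 and 1278 in the clofibrate mice and 1038, 874 and 487 in the control mice. The clofibrate group held both the lowest and the highest of the 9 values, and all groups overlapped. The log2 change was 0.41 ± 0.51 with permethrin (SE; 95% interval -0.72 to 1.54; limma adjusted p = 0.788) and 0.32 ± 0.51 with clofibrate (-0.81 to 1.45; limma adjusted p = 0.800). The permethrin interval reaches a 1.65-fold fall and a 2.90-fold rise and the clofibrate interval a 1.75-fold fall and a 2.73-fold rise, so the data do not show that the gene was unaffected. A second probe set for Cyp7a1 gave log2 changes of 0.36 with permethrin and 0.31 with clofibrate. Without the first clofibrate array, which held the lowest value, the log2 change with clofibrate was 1.06 (limma adjusted p = 0.0786), which also missed the threshold. That was the highest of the 24 alternative settings, over which the clofibrate change ranged from -0.21 to 1.06. It passed in 0 of them and its sign differed from the reported one in 2.

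**Figure D3:**
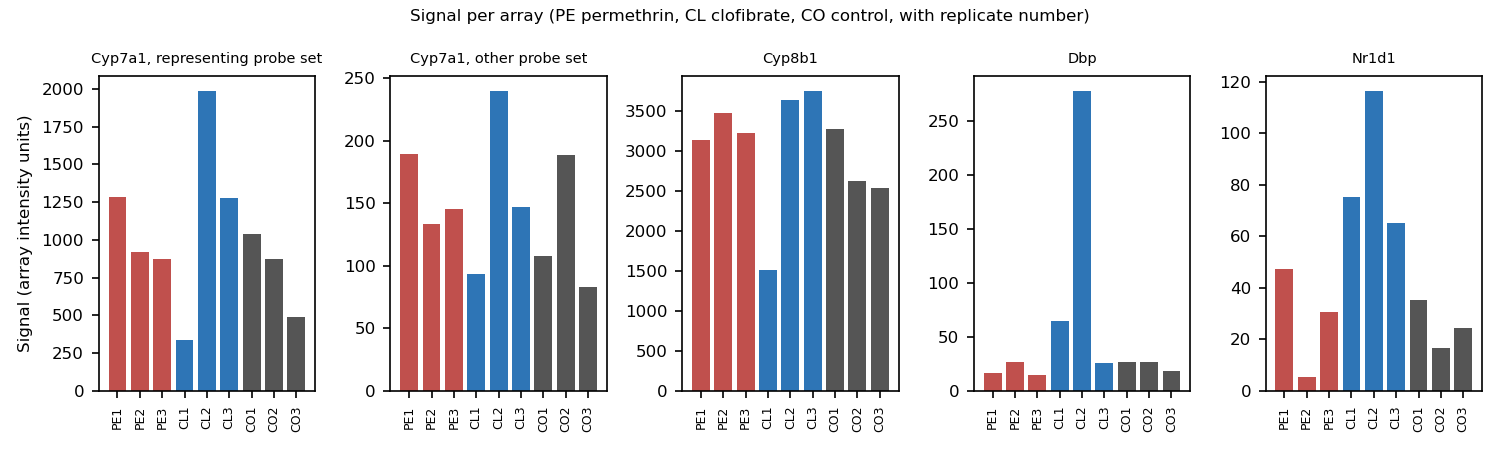
Signals on each of the 9 arrays as bars from 0, with permethrin, clofibrate and control arrays side by side, for both Cyp7a1 probe sets, Cyp8b1 and the clock genes Dbp and Nr1d1. Clofibrate replicate 1 has the lowest signal of all arrays for Cyp8b1, 1508, and for the representing probe set of Cyp7a1, 339, and clofibrate replicate 2 has the highest Cyp7a1, Dbp and Nr1d1.

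Cyp7b1, the oxysterol 7α-hydroxylase of the alternative route, separated the diets. Its signal was 1919.7, 1371 and 1167 with permethrin and 741, 708 and 639.9 with clofibrate, against 1201, 1046 and 806 with control diet. Every permethrin array lay above every clofibrate array, and the control arrays lay above the clofibrate ones and overlapped the permethrin ones. Cyp7b1 was 2.09-fold higher with permethrin than with clofibrate (95% interval 1.57 to 2.77; log2 difference 1.06 ± 0.19, limma adjusted p = 0.0319). Against control it was 0.53 ± 0.19 higher on the log2 scale with permethrin (limma adjusted p = 0.222) and 0.53 ± 0.19 lower with clofibrate (-0.53; limma adjusted p = 0.139), neither of which passed. A second probe set gave 1.18 ± 0.22 between the diets (limma adjusted p = 0.0387). The call was lost when arrays were scaled to the hybridization controls or centred on the hepatocyte markers, and without any 1 clofibrate array, permethrin replicate 1 or 2, or control replicate 2 (limma adjusted p = 0.0520 to 0.151).

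Cyp39a1, the oxysterol 7α-hydroxylase that acts best on 24-hydroxycholesterol, fell the most. Its signal was 64.1, 90.5 and 47.3 with permethrin, 53.3, 25.5 and 24.5 with clofibrate and 334, 104 and 302 with control diet. All 6 treated arrays lay below all 3 control arrays, whose own values spread widely. With clofibrate it was 6.25-fold lower (95% interval 3.29 to 11.9; log2 change -2.64 ± 0.42, limma adjusted p = 0.00406). With permethrin its log2 change was -1.71 ± 0.42 (-2.63 to -0.78; limma adjusted p = 0.0789), which missed the threshold, and the difference between the diets was 0.94 ± 0.42 (limma adjusted p = 0.406). Control replicate 2, at 104, was the lowest control, and without it the permethrin change was -2.23 and passed (limma adjusted p = 0.0129). The permethrin change passed in only that 1 of the 24 alternative settings. Its log2 change ranged from -2.23 to -1.41 over them, with limma adjusted p up to 0.270.

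Hsd3b7 oxidises the 3β-hydroxyl group of the 7α-hydroxylated sterols of both routes. Its signal was 5227, 5582 and 4559 with permethrin, 4310.05, 5245 and 4695 with clofibrate and 5681, 5448 and 5385 with control diet. Every clofibrate array lay below every control array, by a small margin. The log2 change was -0.11 ± 0.10 with permethrin (limma adjusted p = 0.697) and -0.22 ± 0.10 with clofibrate (95% interval -0.44 to 0.01; limma adjusted p = 0.278), and neither passed.

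Akr1d1 is the 5β-reductase that gives the sterol ring of bile acids its bent shape. Its signal was 1338, 1455 and 1212 with permethrin, 1137, 1027 and 979 with clofibrate and 1608, 1599 and 1511 with control diet. The 3 groups did not overlap, with clofibrate lowest and control highest. With clofibrate it was 1.5-fold lower (95% interval 1.28 to 1.76; log2 change -0.59 ± 0.10, limma adjusted p = 0.00729). With permethrin the log2 change was -0.24 ± 0.10 (limma adjusted p = 0.339) and did not pass. A second, dimmer probe set did not call the clofibrate change (log2 change -0.32 ± 0.28, limma adjusted p = 0.603).

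Cyp8b1, the sterol 12α-hydroxylase, sets how much cholic acid is made relative to the muricholic acids of mice. Its signal was 3139.7, 3468 and 3222 with permethrin, 1508, 3634 and 3755 with clofibrate and 3275, 2629 and 2532 with control diet. Apart from the first clofibrate array, the values lay between 2532 and 3755, and each diet overlapped control. The log2 change was 0.23 ± 0.28 with permethrin (95% interval -0.38 to 0.84; limma adjusted p = 0.777) and -0.03 ± 0.28 with clofibrate (-0.64 to 0.58; limma adjusted p = 0.971). Without the first clofibrate array the clofibrate change was 0.40 (limma adjusted p = 0.0785), and its sign differed from the reported one in 8 of the 24 alternative settings.

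Cyp27a1, the mitochondrial sterol 27-hydroxylase, opens the alternative route and starts side-chain oxidation in both. Its signal was 2731, 2694 and 2522 with permethrin, 2165, 1903 and 1981 with clofibrate and 2930.1, 2757 and 2333 with control diet. All 3 clofibrate arrays lay below all arrays of the other groups. It was 1.32-fold lower with clofibrate than with control diet (95% interval 1.13 to 1.55; log2 change -0.40 ± 0.11, limma adjusted p = 0.0491), just inside the threshold. Leaving out control replicate 1 or 2, clofibrate replicate 2 or 3, or any permethrin array, which alters only the estimate of the spread, lost the call (limma adjusted p = 0.0614 to 0.190). With permethrin its log2 change was -0.01 ± 0.11 (-0.24 to 0.22; limma adjusted p = 0.984).

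Promoters are shown for Cyp27a1 and Akr1d1, which fell with clofibrate. A promoter sequence was at hand for only 4 of the 10 enzymes, so the called Cyp39a1 and Slc27a5 are not shown. Each is the 250 bases before the gene start in RefSeq (GRCm38.p6), written 5′ to 3′ on the plus strand, for Cyp27a1 at chr1:74713285-74713534 and for Akr1d1 at chr6:37529923-37530172. Capitals mark matches to the motifs searched on both strands: the CCAAT box, the TATA box as TATAAA, the nuclear receptor core site AGGTCA, its direct repeat spaced by 1 base (which contains that site), the FOXA site TGTTTAC, the HNF1 site GTTAAT and the GC box GGGCGG.
Cyp27a1: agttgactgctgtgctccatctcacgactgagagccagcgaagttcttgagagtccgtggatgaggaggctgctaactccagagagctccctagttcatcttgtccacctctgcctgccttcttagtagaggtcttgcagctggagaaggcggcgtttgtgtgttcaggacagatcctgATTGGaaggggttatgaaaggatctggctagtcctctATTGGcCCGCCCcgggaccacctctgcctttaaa
Akr1d1: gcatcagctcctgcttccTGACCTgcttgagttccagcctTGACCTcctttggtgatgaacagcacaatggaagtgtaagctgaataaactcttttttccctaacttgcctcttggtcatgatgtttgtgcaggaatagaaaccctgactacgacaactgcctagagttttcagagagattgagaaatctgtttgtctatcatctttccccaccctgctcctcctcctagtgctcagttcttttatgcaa
The Cyp27a1 window held CCAAT on the other strand at 71 to 67 and at 34 to 30 bases before the start, and GGGCGG on the other strand at 28 to 23. The Akr1d1 window held AGGTCA on the other strand at 232 to 227 and at 210 to 205 bases before the start. Among 32851 promoter windows of the same length, 33.8% held CCAAT, 32.7% GGGCGG, 14.0% AGGTCA, 12.4% TATAAA, 6.43% GTTAAT, 3.17% TGTTTAC and 0.0335% the direct repeat. These matches describe the letters in the window and were not tied to binding.

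Amacr, the racemase that turns side-chain intermediates into the form peroxisomes can oxidise, had signals of 1981, 1929 and 1670.1 with permethrin, 2070.25, 2182 and 2206 with clofibrate and 1838, 1889 and 2203 with control diet. The groups overlapped between each diet and control. The log2 change was -0.09 ± 0.11 with permethrin (limma adjusted p = 0.777) and 0.13 ± 0.11 with clofibrate (limma adjusted p = 0.580).

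Slc27a5 activates bile acids to their coenzyme A thioesters before conjugation. Its signal was 4409, 5214 and 4795 with permethrin, 3819, 4111 and 4818 with clofibrate and 6193, 5504 and 6058 with control diet. Both diets lay below every control array. It was 1.40-fold lower with clofibrate (95% interval 1.19 to 1.64; log2 change -0.48 ± 0.11, limma adjusted p = 0.0229), and with permethrin its log2 change was -0.30 ± 0.11 (limma adjusted p = 0.226), which did not pass. The clofibrate call was lost without control replicate 1 or 3 or without clofibrate replicate 1 or 2 (limma adjusted p = 0.0506 to 0.0992).

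Baat joins the activated bile acid to its amino acid. Its signal was 1108, 955 and 1089 with permethrin, 1002, 907 and 959.9 with clofibrate and 1111, 1251 and 1122 with control diet. Every treated array lay below every control array. The log2 change was -0.15 ± 0.10 with permethrin (limma adjusted p = 0.590) and -0.28 ± 0.10 with clofibrate (limma adjusted p = 0.161), and neither passed. A second, dimmer probe set gave -0.22 with permethrin and -0.25 with clofibrate (limma adjusted p = 0.660 and 0.538). On it the permethrin arrays lay below control, while the clofibrate arrays, at 311, 182 and 323, overlapped the control arrays.

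The clofibrate calls differed in how far they rested on the scaling of the arrays. Cyp39a1 passed under all 24 alternative settings, with log2 changes between -3.17 and -2.24. Akr1d1 passed under 19 of the 24, Slc27a5 under 13 and Cyp27a1 under 8. Under the 5 other scalings Akr1d1 passed 2 times, and Slc27a5 and Cyp27a1 passed 0 times. With clofibrate, the median over all genes lay 0.31 higher on the log2 scale after scaling to the hybridization controls and 0.40 higher after centring on the hepatocyte markers, so signs of small changes under these 2 scalings follow that shift.

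**Figure D4:**
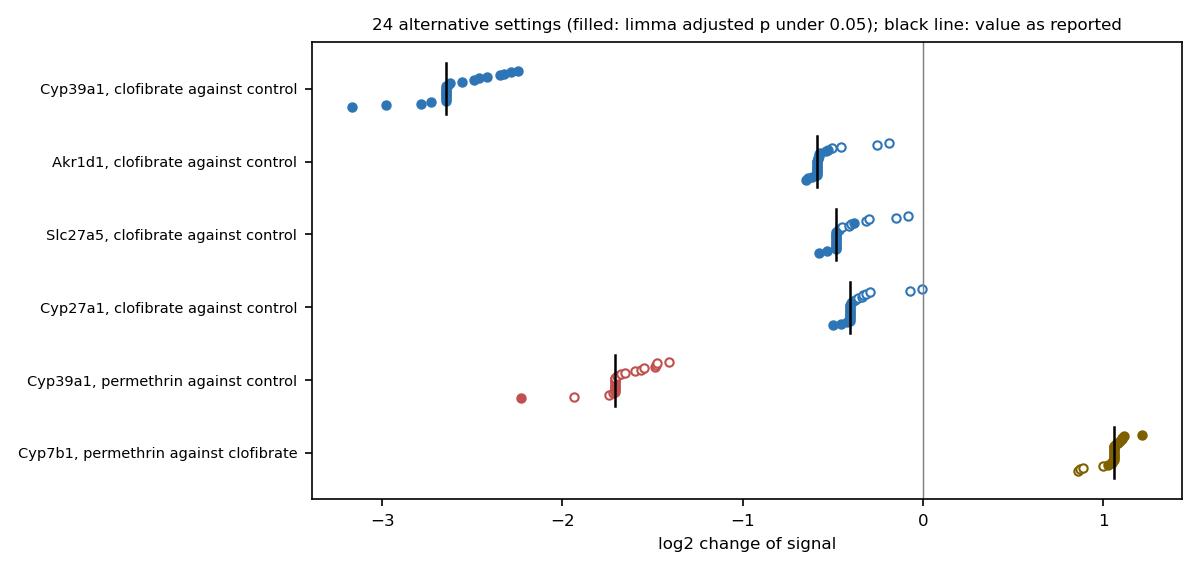
Log2 change of the named enzymes under 24 alternative settings, with 1 point per setting and filled points for limma adjusted p under 0.05 and a black line at the reported value. All Cyp39a1 points with clofibrate are filled and lie between -3.17 and -2.24, while those of Cyp27a1 reach 0.

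The enzymes varied to very different degrees between mice of a group. Cyp7a1 had a pooled within-group SD of 0.85 on the log2 scale, larger than that of 97.4% of genes, Cyp39a1 one of 0.68 and Cyp8b1 one of 0.45. Hsd3b7, Akr1d1, Cyp27a1, Amacr, Slc27a5 and Baat had SDs of 0.13 or less, where the median gene had 0.23. Changes of Cyp7a1, Cyp39a1 and Cyp8b1 were therefore measured with wide intervals, and those of the conjugation enzymes with narrow ones.

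Within an array, the log2 difference of Cyp7b1 minus Cyp7a1 does not depend on scaling. It was 0.58, 0.57 and 0.42 with permethrin, 1.12, -1.49 and -0.99 with clofibrate and 0.21, 0.26 and 0.72 with control diet. The clofibrate values fell on both sides of the control values. In all 12 such tests (Cyp7b1, Cyp8b1 and Cyp27a1 each minus Cyp7a1, and Baat minus Slc27a5, in the 3 comparisons) the groups overlapped, with exact permutation p of 0.3 to 0.8, where 3 against 3 arrays cannot go below 0.1.

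The genes most like Cyp7a1 over the 9 arrays, by the root mean square difference of centred log2 signals, were Mnd1 (0.34), 4930478L05Rik (0.36) and Arhgef16 (0.37), where the median over genes was 0.77. Mnd1 lay at signals of 1.08 to 19.3 and 4930478L05Rik at 1.77 to 18.3, around the filter of 15.6, so these matches are at or near background. Cyp8b1 was number 8 among 12466 genes in likeness to Cyp7a1 (0.42). In the other direction Cyp7a1 was only number 4399 in likeness to Cyp8b1, where the median over genes was 0.47. The same difference of 0.42 exceeded the root mean square of Cyp8b1 about its own mean, 0.38. Those most like Cyp7b1 were Akr1b8 (0.17), Magt1 (0.21) and Stag1 (0.23), and those most like Cyp8b1 were 1700029I15Rik (0.15), Nr2c1 (0.17) and Mctp2 (0.18), of which 1700029I15Rik was also dim, at 10.6 to 28.7. These values describe 9 arrays and carry no test.

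Other enzymes of bile acid synthesis moved in both directions. Of 13 tested, 3 rose and 0 fell with permethrin, where 1.28% of all genes rose and 0.85% fell. With clofibrate 4 rose and 3 fell, where 3.22% of all genes rose and 3.8% fell. The genes of this list that rose with both diets serve side-chain shortening in peroxisomes: the transporter Abcd3 (1.71-fold with permethrin, 1.78-fold with clofibrate), the branched-chain oxidase Acox2 (1.66-fold with permethrin, 1.49-fold with clofibrate) and the bifunctional enzyme Hsd17b4 (1.46-fold with permethrin, 1.64-fold with clofibrate). Scp2, Slc27a2 and Pex7, listed with them, passed with neither diet. Their log2 changes were -0.04, 0.14 and 0.09 with permethrin and -0.18, 0.18 and 0.10 with clofibrate. The peroxisomal thioesterase Acot8 averaged 416 ± 56.4 with permethrin, 776 ± 13.4 with clofibrate and 275 ± 38.5 with control diet (SD, n = 3 each), and rose 2.82-fold with clofibrate.

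Cyp2c70, which makes the muricholic acids of mice, averaged 4623 ± 163 with permethrin, 2811 ± 562 with clofibrate and 6597 ± 201 with control diet (SD, n = 3 each). The 3 groups did not overlap. It was 2.38-fold lower with clofibrate, and 1.67-fold higher with permethrin than with clofibrate (limma adjusted p = 0.0334). Against control it was 1.43-fold lower with permethrin (limma adjusted p = 0.0887), which missed the threshold. The aldo-keto reductase Akr1c6 was 1.52-fold lower and the bile acid hydroxylase Cyp3a11 1.33-fold lower with clofibrate.

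Among 13 genes listed for transport, 2 rose and 0 fell with permethrin, where 1.28% of all genes rose and 0.85% fell. With clofibrate 3 rose and 2 fell, where 3.22% of all genes rose and 3.8% fell. The transport genes that rose were Abcc4 and Ephx1 with both diets and the phospholipid exporter Abcb4 with clofibrate (1.47-fold). Ephx1, best known as the microsomal epoxide hydrolase, was 2.43-fold higher with permethrin and 1.83-fold higher with clofibrate. The basolateral exporter Abcc4 averaged 318 ± 43.1 with permethrin, 198 ± 80.9 with clofibrate and 38.0 ± 8.89 with control diet (SD, n = 3 each). It was 7.86-fold higher with permethrin and 4.71-fold higher with clofibrate. The main bile acid uptake carrier Slc10a1 was 1.51-fold lower with clofibrate (limma adjusted p = 0.00528), and the organic anion carrier Slco1a4 4.91-fold lower. With permethrin Slc10a1 was 1.16-fold and Slco1a4 2.27-fold lower, and neither passed (limma adjusted p = 0.368 and 0.0670).

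None of 22 regulators tested passed limma's threshold in any comparison, with 6 at an unadjusted p under 0.05 for permethrin against control, 8 for clofibrate against control and 4 between the diets, where the shares of all genes were 15.8%, 21.0% and 13.0%. Nr0b2 (SHP), a repressor of Cyp7a1 picked here after its values were seen, had signals of 442, 293 and 458 with permethrin, 454, 553 and 694 with clofibrate and 436, 399.6 and 686 with control diet, and the groups overlapped. The clock genes Dbp and Nr1d1 had the largest changes of the list, 1.62 and 1.64 on the log2 scale with clofibrate (limma adjusted p = 0.171 and 0.111). Nr1d1 was 47.4, 5.42 and 30.6 in the permethrin mice, 75.4, 117 and 65.0 in the clofibrate mice and 35.4, 16.7 and 24.3 in the control mice, so every clofibrate array lay above all others. Dbp was 65.2, 279 and 26.0 in the clofibrate mice, against 26.6, 27.1 and 17.9 in the control mice, and these groups overlapped. The time of day of sampling was not given in the labels, and its part in Cyp7a1, whose level follows a daily cycle, was not tested.

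Of 14 sterol supply genes tested, 0 passed with permethrin in limma, with 5 at an unadjusted p under 0.05 where 15.8% of all genes were. With clofibrate 7 had an unadjusted p under 0.05 (4 higher and 3 lower), where 21.0% of all genes did, and 1 passed, the HDL receptor Scarb1, which was 1.82-fold lower (limma adjusted p = 0.0175). Of 5 detoxication genes, Cyp2b10 was 4.86-fold and Cyp3a13 3.62-fold higher with permethrin. With clofibrate Cyp3a13 was 2.62-fold higher, Cyp2b10 2.39-fold lower and the glucuronosyltransferase Ugt2b1 2.02-fold lower. Each of these detoxication changes passed. Over all genes 1.28% passed as higher and 0.85% as lower with permethrin, and 3.22% as higher and 3.8% as lower with clofibrate.

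**Figure D5:**
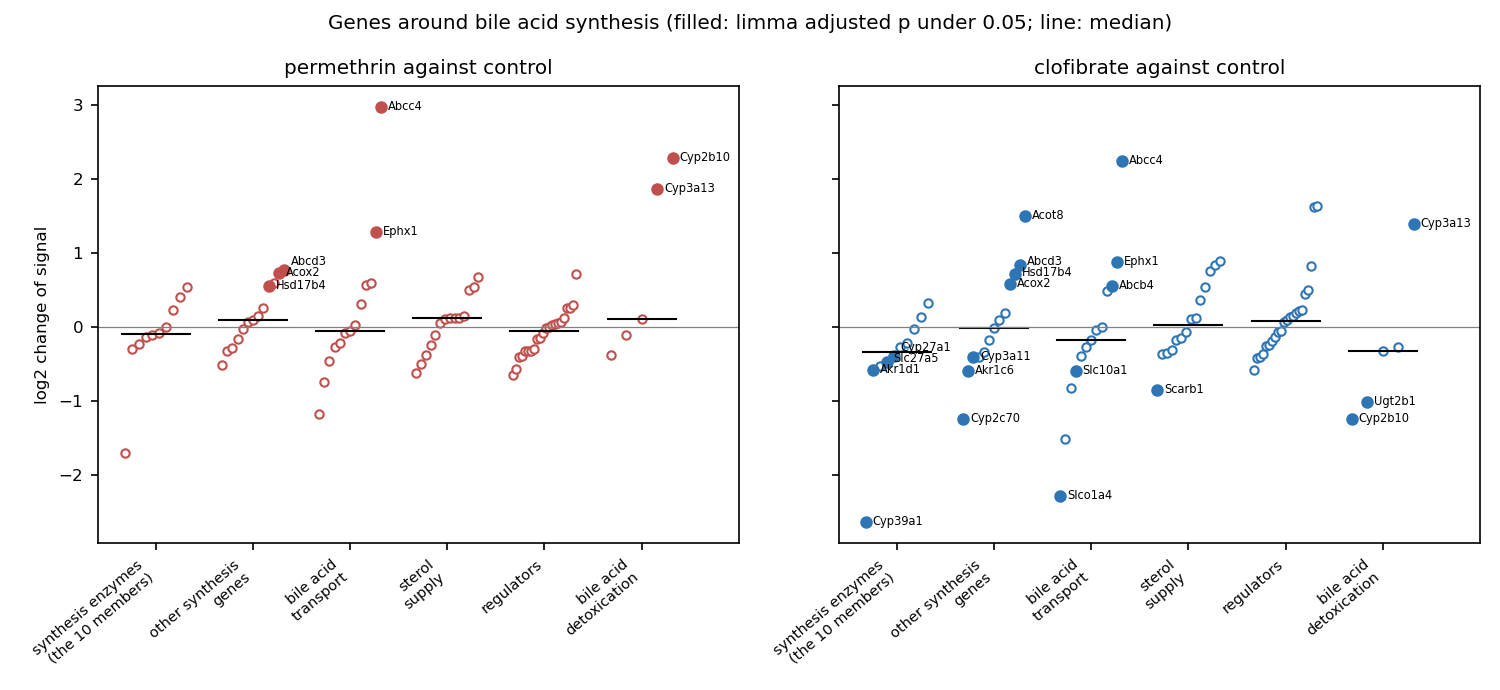
Log2 change of every tested gene in the 10 enzymes and 5 lists around them, for permethrin and clofibrate against control, with filled points for limma adjusted p under 0.05 and a line at each list's median. The synthesis enzymes have no filled point with permethrin and 4 with clofibrate, and the regulators have none in either.

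Summed marker signals of other liver cells overlapped between the groups for Kupffer and stellate cells, while those of endothelial cells were lower on every clofibrate array than on any other. Summed Kupffer cell and leukocyte markers were 1504 to 3296 with permethrin, 1668 to 2427 with clofibrate and 1733 to 2158 with control diet. Stellate markers were 770.03 to 968 with permethrin, 652 to 887 with clofibrate and 560.2 to 1299 with control diet. Endothelial markers were 1481 to 1706 with permethrin, 1288 to 1394 with clofibrate and 1635 to 1842 with control diet. The brightest of them, Clec4g, averaged 767 with clofibrate and 1036 with control diet. With clofibrate Stab2, Clec4g and Kdr were lower than control, while Cdh5, Lyve1 and Pecam1 were higher (log2 changes 0.27, 0.10 and 0.06). The cholangiocyte markers Krt7 and Cftr were below the filter on all arrays. The 22 genes tested in these 4 lists gave 0 calls in limma in each comparison, and their unadjusted p was under 0.05 for 3 endothelial markers and 1 stellate marker with clofibrate and for 1 endothelial marker with permethrin, all lower than control. Over all genes 7.03% were called with clofibrate and 2.13% with permethrin, and an unadjusted p under 0.05 was reached by 21.0% and 15.8%. Their part in the enzymes' changes was not tested.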

How the data were processed

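Liver RNA of 9 mice was measured on Affymetrix arrays. Values are MAS5 signals, an intensity on a linear scale that the submitters deposited, per the submitters' processing notes; no source used here gives the MAS5 version or settings. The trimmed means of the 9 deposited arrays averaged 100.001 (2% trimmed from each end). From these values, log2(signal + 3.35) was computed, where 3.35 is the 20th percentile of all signals, so fold changes of dim genes are understated. Of 45101 probe sets, 64 were controls, 34945 had 1 symbol, 932 several and 9160 none. A probe set was tested when its signal exceeded 15.6, the median, on at least 3 arrays, which left 24548. Of the 16 probe sets of the 10 enzymes, 14 were tested. limma 3.58.1 (R 4.3.3) was fitted to group means of all 9 arrays with an intensity trend in eBayes, two-sided, with Benjamini-Hochberg adjustment over the tested probe sets of each comparison and a threshold of 0.05. The fit was tested on simulated data. The number of arrays limits the precision.

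All genes past the threshold in the fixed lists could be named, with the 4 largest changes of each list and the 3 genes most like Cyp7a1, Cyp7b1 and Cyp8b1. The enzymes and gene lists were chosen with earlier results of these data known. The labels name mouse as the organism, while a free-text description of the treated samples says rats. No scan batches were given in the labels. Array medians were 13.4 to 17.9, and correlations between arrays were 0.959 to 0.970 within groups and 0.948 to 0.966 between them. Same-numbered arrays had residual correlations of -0.109 to 0.113, so replicate numbers were not treated as pairs. Alternatives covered offset, scaling, filter, fit, probe set choice and leaving out each array.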

Additional observations from a re-analysis of the deposited data

Results flagged for a closer look

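Cyp7b1 was flagged for its difference between the diets. Its log2 change with permethrin minus its log2 change with clofibrate, both against control, was 1.06 ± 0.19 (limma adjusted p = 0.0319). The control mean cancels in it, so it is the same comparison of permethrin with clofibrate as above and no further result. Neither change against control passed (limma adjusted p = 0.222 with permethrin and 0.139 with clofibrate). All 3 permethrin arrays were higher than all 3 clofibrate arrays. The difference ranged from 0.86 to 1.22 over 24 alternatives and passed in 14 of them.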

How the results depend on the processing

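With clofibrate against control, 4 enzymes passed. The count was 5 with array weights, which added Cyp7b1 (limma adjusted p = 0.0494), where 1496 of 12467 genes passed against 876 as reported. It was 2 after quantile normalization (798 of all genes) and 2 with no filter on dim probe sets (677 of 18193). It was 1 with arrays centred on their median (487 of all genes), 1 with scaling to the hybridization controls (1060) and 1 with no intensity trend (396). Of the alternatives chosen after seeing the data, cyclic loess gave 2 (777 of all genes). Centring on the hepatocyte markers gave 2 (2481 of all genes), which were Cyp39a1 lower and Amacr higher (0.53, limma adjusted p = 0.0109). Leaving out single arrays gave 2 to 3, where 430 to 889 of all genes passed. Leaving out control replicate 1 or clofibrate replicate 2 gave 2. For permethrin against control, leaving out single arrays gave 0 to 1, where 108 to 318 of all genes passed. Between the diets 1 enzyme passed, where 92 of all genes did. The count was 0 with scaling to the hybridization controls (43 of all genes), no intensity trend (10), only the groups compared (48) or hepatocyte centring (101). It was 0 to 1 on leaving out single arrays, where 17 to 119 of all genes passed. The median log2 change of the enzymes with clofibrate was -0.01 with hybridization control scaling and 0.06 with hepatocyte centring, which gave 0.13 with permethrin. The median over all genes with clofibrate was 0.27 and 0.36 under these scalings, and 0.18 with permethrin under hepatocyte centring. Relative to that median, the enzymes' median with clofibrate was -0.28 and -0.30, against -0.30 as reported. No single enzyme's called change reversed its sign. With the replicate number as a block the count was 0 for permethrin and 4 for clofibrate, each against control, and 1 between the diets. Of all genes 205, 726 and 63 passed in these comparisons with the block. Cyp27a1 with clofibrate was lost (adjusted p = 0.0569) and Cyp7b1 with clofibrate passed (adjusted p = 0.0477).

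Over all genes, 402 rose and 474 fell with clofibrate. The split was 974 and 86 with hybridization control scaling, 305 and 182 with median centring, 419 and 358 with cyclic loess, and 2373 and 108 with hepatocyte centring. With permethrin against control it was 160 and 106, against 134 and 21 with hybridization control scaling, 117 and 26 with median centring and 432 and 34 with hepatocyte centring. Between the diets it was 59 and 33, against 9 and 34 with hybridization control scaling, 26 and 7 with median centring, 49 and 44 with cyclic loess and 20 and 81 with hepatocyte centring. With no intensity trend 80, 396 and 10 genes passed in these comparisons (permethrin and clofibrate against control, then the diets), against 266, 876 and 92. The causes were not tested.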
